A study of Mus musculus with 4 samples.

Results

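The adipose tissue spots were chosen by measured values as the 250 spots with the highest adipocyte marker score among 10574 tissue spots on 4 Visium sections of the injured mouse Achilles tendon. The score was the percentage of a spot's UMIs (unique molecular identifiers, each standing for 1 captured RNA molecule) that came from 6 genes, Adipoq, Plin1, Cidec, Cfd, Plin4 and Retn. Only spots with at least 1000 UMIs were scored, and the sections were ranked together. The first section of the WT control group (WT 1) held 52 adipose spots of 3008 (1.73%), and the second (WT 2) held 34 of 2000 (1.70%). The first section of the F592A 1NMPP1 group (F592A 1) held 67 of 2820 (2.38%), and the second (F592A 2) held 97 of 2746 (3.53%). Because measured values chose these spots, the number of spots per section and every contrast with the other spots are given as a description with no test.

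Visium captures polyadenylated RNA on an array of barcoded spots under a tissue section, and each spot covers a small area that can hold several cells of different types. The WT control group carried TrkA WT, and the other group carried TrkA F592A, a kinase change that lets the small molecule 1NMPP1 block the protein, and received 1NMPP1. All mice, of both sexes, were 12 weeks old, had buprenorphine and isoflurane, and received a punch of 0.5 mm in the left Achilles tendon about 2 mm above its heel insertion 14 days before collection. The sections were 10 µm thick and each genotype pooled 4 mice. The allele and the compound differed at once, and whether WT mice also had the compound is not given, so the effects of allele and compound cannot be told apart. No label ties a section to an animal, so a p-value rests on how much sections vary, which may be technical.

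Adipocytes store fatty acids as triglyceride in a large lipid droplet coated by perilipins. They take up fatty acids from circulating lipoproteins, make more from glucose, release them by lipolysis when sympathetic nerves fire, and secrete adipokines. Fat lies beside the Achilles tendon in Kager's fat pad and under the skin of the leg, and the files do not say which depot a spot belongs to.

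The 6 selection markers had the following levels, given as CPM, a gene's UMIs scaled to a total of 1000000 UMIs in the adipose spots of a section, in the order WT 1, WT 2, F592A 1, F592A 2 here and in every later set of 4 values. Adipoq, which encodes the hormone adiponectin, was at 627, 414, 594 and 731 CPM, against 8.19, 9.06, 11.5 and 24.4 CPM in the other spots of the same sections. Cfd, the complement protease adipsin, was at 4059, 2932, 4617 and 4810 CPM against 37.4, 60.0, 81.7 and 181. It supplied 69.4%, 75.6%, 75.8% and 71.1% of the marker UMIs, so the ranking rested mainly on this gene. Cidec, a protein that fuses lipid droplets, ran from 164 to 379 CPM. Retn (resistin) ran from 139 to 357, Plin1, the main droplet coat of fat cells, from 109 to 290, and Plin4, another coat protein, from 119 to 239. WT 2 had the lowest level of each of the 6.

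The lowest score among the adipose spots was 0.2347%, the first spot left out had 0.2346%, and the tenth on either side had 0.245% and 0.229%. The median adipose score was 0.466% and the highest 3.30%, while 49.0% of the 10574 spots had no marker UMI. A few UMIs decide a score near the threshold, since 50 adipose spots had fewer than 10 marker UMIs and the smallest number was 3. At least 1 UMI of a marker other than Cfd was present in 242 of the 250 adipose spots, and at least 2 different ones in 212 (84.8%). Among the other spots 6.36% held at least 2. Ranking by the 5 markers without Cfd kept 180 of the 250 spots.

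**Figure D1:**
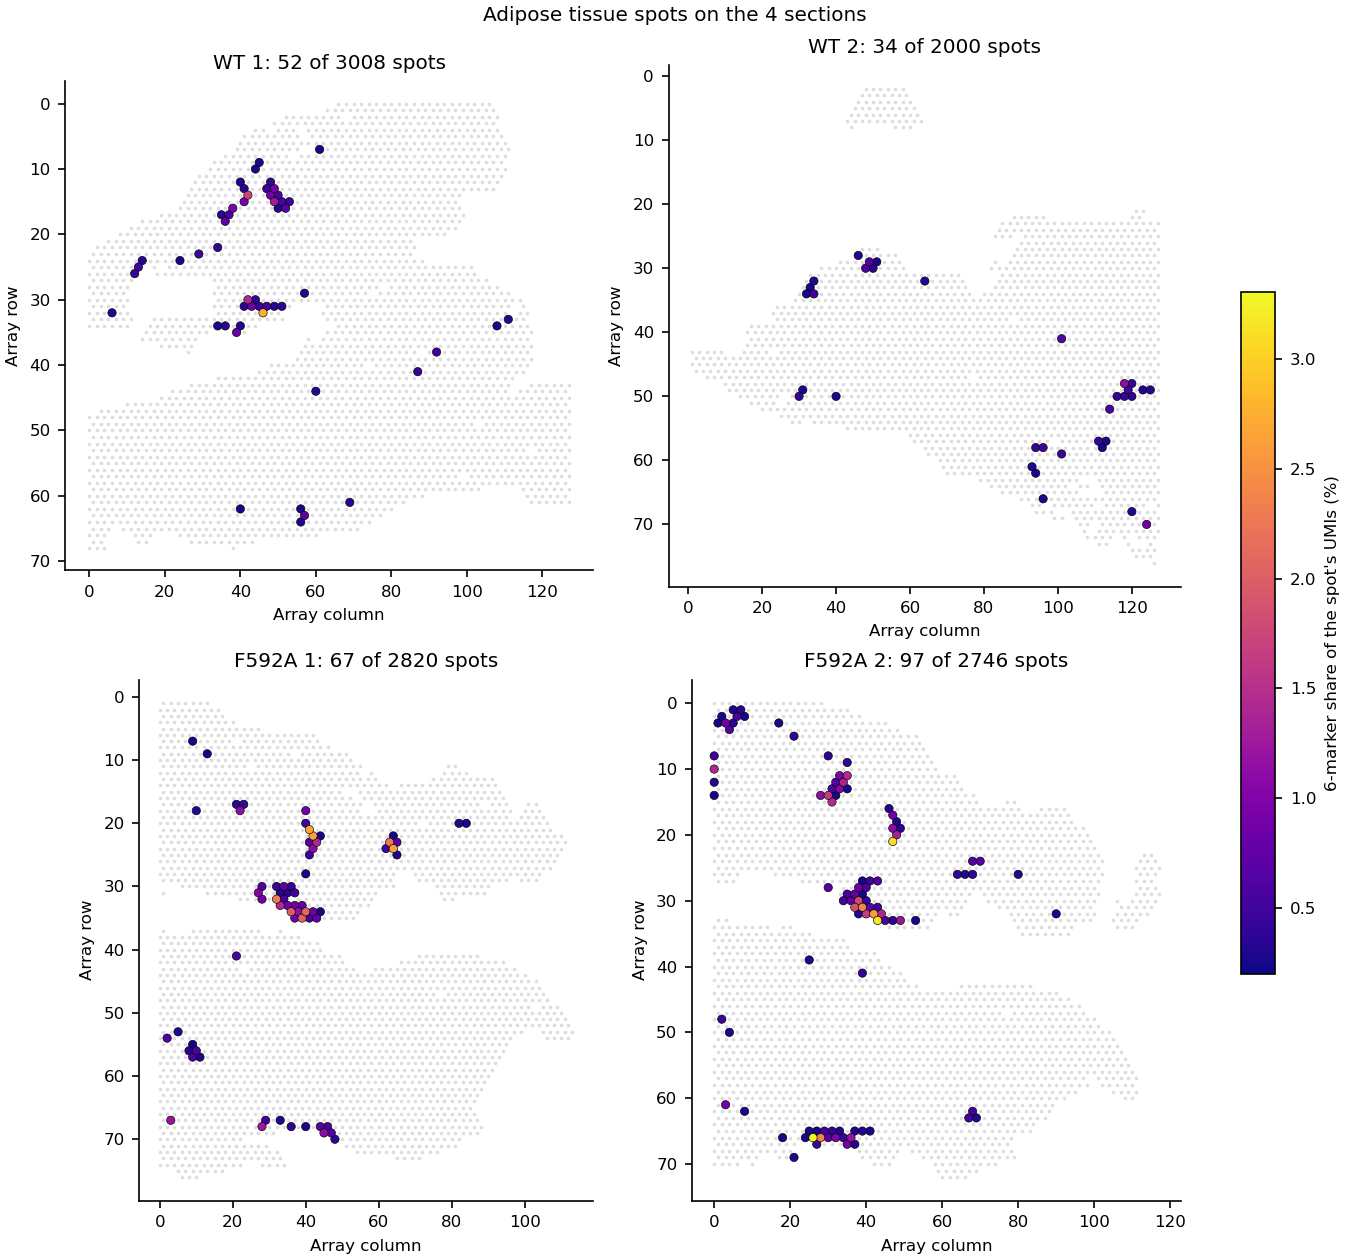
Position of the adipose tissue spots on the Visium array of each section (array column and row; neighbouring spots in a row are 2 columns apart). Colour gives the 6-marker share of a spot's UMIs in percent and grey points are the other spots with at least 1000 UMIs; 196 of the 250 adipose spots touch another one.

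The adipose spots lay in patches. Of the 250, 196 (78.4%) had another adipose spot among their 6 neighbours, and the share was 75.0%, 73.5%, 82.1% and 79.4% per section. Of the other spots 5.48% to 8.003% touched an adipose spot. The 250 spots formed 88 patches, and 139 of them lay in 13 patches of at least 5 spots. The largest patches of the sections held 10, 6, 21 and 24 spots. At the edge of the tissue lay 7.69% and 2.94% of the adipose spots of the WT sections and 22.4% and 20.6% of those of the F592A sections, against 12.8% to 13.7% of all tissue spots.

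The adipose spots of the 4 sections held 252056, 548124, 826006 and 838334 UMIs in all. Their median depth was 2928, 10045, 3763 and 4879 UMIs, below the other spots in each section but WT 2. Single deep spots weigh heavily in these sums: 15 spots with over 20000 UMIs (1, 7, 5 and 2 per section) supplied 9.85%, 64.0%, 68.5% and 38.5% of the UMIs. Those 15 had a median of 10.7% of their UMIs from a list of 10 fibroblast and wound matrix genes, against 4.52% in the other 235. From a list of 10 tenocyte genes they had a median of 0.945%, against 0.135%. Values without the deep spots are given beside most group differences of the genes named below. Levels moved too: Scd1 in F592A 1 was at 4247 CPM with the deep spots and at 11723 CPM without them. Xist, expressed from the inactive X chromosome of females, was at 133 CPM in the adipose spots of WT 2 and had no UMI in those of the other sections, while the Y-linked Ddx3y was at 107, 0, 82.3 and 84.7 CPM. Sex therefore differed between the WT sections, and WT 2 stood apart from the other 3.

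Outside the 6 markers, 61 genes were more than 2-fold higher in adipose than in other spots in every section after 20 CPM was added to both. With the 6 markers these were 67 of 7277 genes with at least 50 UMIs in adipose spots (0.921%). Genes counted with the markers shared the spots the markers had chosen, so none of these folds is a test. Of the 7277 genes, 19.6% were higher than in the other spots in all 4 sections and 12.1% were lower in all 4.

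Genes for making and storing fat were the most abundant companions. Of 16 lipogenesis and triglyceride synthesis genes, 13 were higher in the adipose spots of all 4 sections. Scd1, the desaturase that makes monounsaturated fatty acids, was at 7990, 1992, 4247 and 6135 CPM, against 377, 127, 260 and 464 in other spots, so 12.7 to 20.2 times higher after 20 CPM was added to both. Dgat2, which closes triglyceride synthesis, was at 329, 150, 215 and 347 CPM against 21.7 to 44.5. Fasn, the fatty acid synthase, was at 540, 133, 357 and 471 CPM, and in WT 2 stood 1.80 times above the other spots. Pck1, which supplies the glycerol backbone in fat, was at 115, 54.7, 116 and 185 CPM and at no more than 3.37 elsewhere.

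Genes for taking up and carrying fatty acids were also higher, with 7 of 10 above the other spots in all 4 sections. Fabp4, the fatty acid carrier of adipocytes, was at 5451, 2146, 3099 and 4695 CPM, against 232 to 406 elsewhere. Lpl, the lipase that frees fatty acids from lipoproteins, was at 2924, 774, 1082 and 1501 CPM. Cd36, a fatty acid receptor, was at 631, 237, 442 and 501 CPM. The exception was Fabp5, a carrier also made by skin cells, which was lower than in the other spots in every section. Without the 15 deep spots Fabp5 was above the other spots in 3 sections, at 0.828 to 1.26 times their level.

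Of 15 lipolysis genes 12 were higher in all 4 sections. Lipe, hormone-sensitive lipase, was at 547, 235, 298 and 458 CPM against 16.5 to 27.9 in other spots. Pnpla2, the lipase of the first step, was at 242, 128, 345 and 326 CPM, and G0s2, its inhibitor, was even across sections at 67.8 to 90.7 CPM. Mrap, which carries the melanocortin receptor to the surface of fat cells, was at 36.5 to 75.4 CPM against at most 2.51. The carboxylesterase Ces1d was at 270, 162 and 241 CPM in WT 1, F592A 1 and F592A 2 but at 27.4 in WT 2.

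Secreted products included Hp (haptoglobin, which binds free haemoglobin), at 674, 649, 1070.2 and 664 CPM against 45.2 to 66.7, and C3, the complement component on whose pathway adipsin acts, at 325, 431, 547 and 406 against 69.7 to 108. Lep, the satiety hormone leptin, was at 63.5, 20.1, 42.4 and 59.6 CPM and present in 62 of the 250 spots. Other genes among the 20 with the highest lowest-section fold were Cyp2e1 and Cyp2f2, both cytochrome P450 enzymes, Cdo1, which oxidises cysteine, Trf (transferrin), Lrg1, Mmd, B3galt2, Adig, a small protein of fat cells, Acsl1, which activates fatty acids, and Nnat, an imprinted membrane protein. Nnat was at 563, 98.5, 433 and 633 CPM against 6.08 to 14.8, and Cyp2e1 at 520, 104, 402 and 586 against 1.35 to 13.6.

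**Figure D2:**
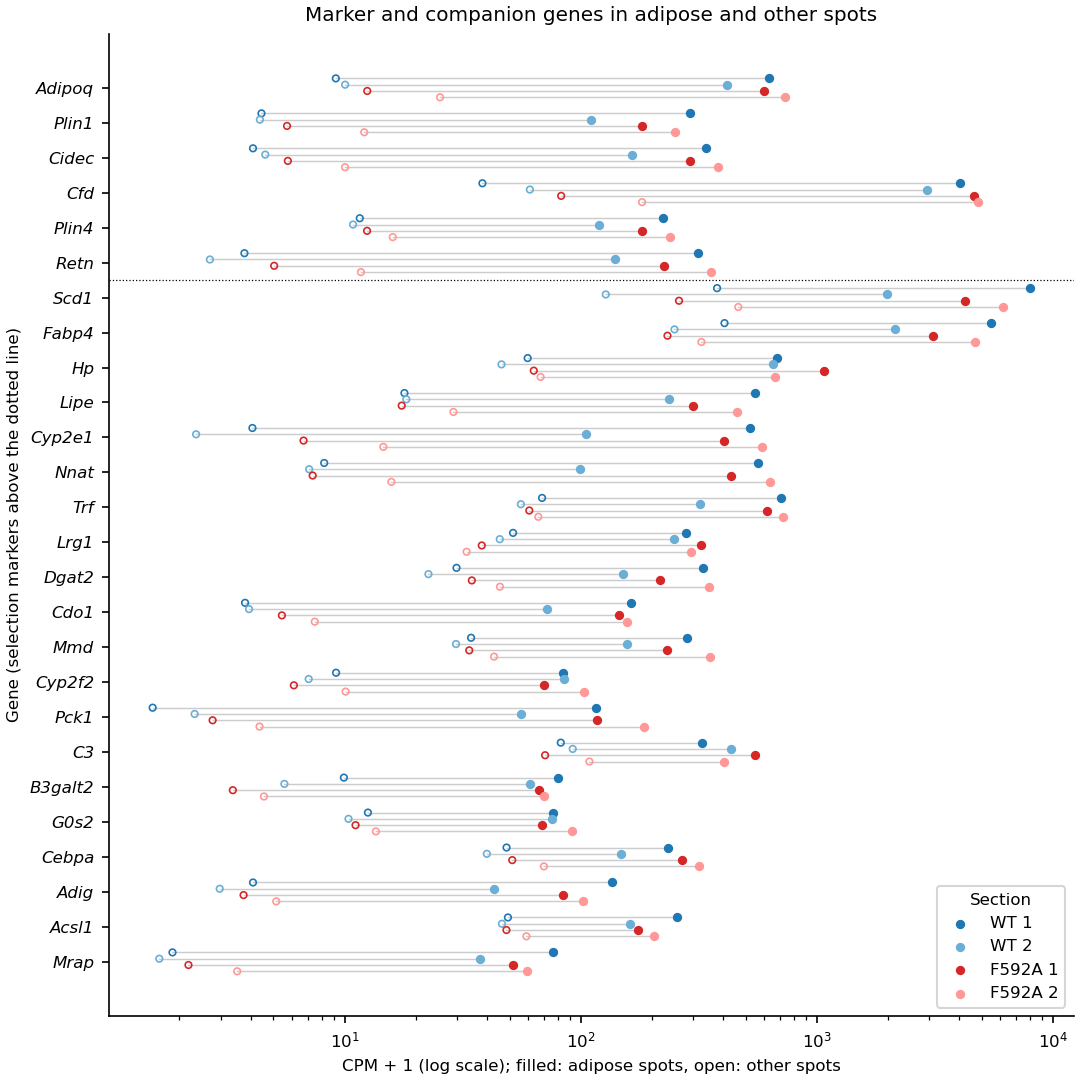
Level of the 6 selection markers (above the dotted line) and of the 20 other genes with the highest lowest-section fold, as CPM + 1 on a log axis, in adipose spots (filled points) and other spots (open points) of each section. Every filled point lies to the right of its open point, and WT 2 has the lowest adipose level for 17 of the 20 companion genes.

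Of 14 adipogenic transcription factors 12 were higher in all 4 sections. Cebpa, which with Pparg drives and maintains the fat cell programme, was at 234, 148, 268 and 316 CPM against 39.1 to 68.9, and Srebf1, an activator of lipogenic genes, at 115, 82.1, 134 and 209. The motif TTGCNNAA, a form bound by C/EBP factors, was searched on both strands in the 250 bases before the start of the 6 markers, the 20 companion genes and Lep. RefSeq promoters (GRCm38.p6) were found for 20 of these 27 genes, and 4 held a match (Lep, Plin1, Cidec and C3), while 9.56% of 32851 promoters did. A match describes the letters and shows no binding. The promoters of 3 of them are printed to show where the letters lie, 5′ to 3′ on the gene's strand, with matches in capitals: Lep from chr6:29059971-29060220 on the plus strand, Plin1 from chr7:79732777-79733026 and Cidec from chr6:113434765-113435014, both on the minus strand.
Lep: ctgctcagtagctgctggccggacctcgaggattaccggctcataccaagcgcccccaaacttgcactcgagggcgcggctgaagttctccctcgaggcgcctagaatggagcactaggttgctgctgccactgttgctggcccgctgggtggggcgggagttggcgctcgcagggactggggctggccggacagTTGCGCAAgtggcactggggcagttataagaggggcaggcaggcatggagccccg
Plin1: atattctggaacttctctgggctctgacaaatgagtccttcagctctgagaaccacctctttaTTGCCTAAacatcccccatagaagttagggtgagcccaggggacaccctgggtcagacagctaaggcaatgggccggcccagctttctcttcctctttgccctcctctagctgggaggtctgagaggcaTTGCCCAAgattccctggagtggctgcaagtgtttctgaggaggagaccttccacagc
Cidec: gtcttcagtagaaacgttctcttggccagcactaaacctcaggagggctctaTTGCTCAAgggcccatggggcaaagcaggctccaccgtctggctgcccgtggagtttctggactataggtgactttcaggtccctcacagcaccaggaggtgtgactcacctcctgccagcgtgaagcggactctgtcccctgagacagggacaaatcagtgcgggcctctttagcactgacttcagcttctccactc

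Thermogenic genes were not among those that marked the adipose spots. Ucp1, the uncoupling protein of brown fat, had no UMI in any adipose spot, and of 12 thermogenic genes 1 was higher in all 4 sections. Cox8b, a respiratory chain subunit shared with muscle, was at 218, 83.9, 125 and 184 CPM, close to the 141 to 205 of other spots. Among 11 genes of insulin action 6 were higher in all 4 sections. Trarg1, a regulator of glucose transporter traffic, was at 39.7, 31.0, 67.8 and 83.5 CPM against at most 5.52, whereas the insulin-responsive transporter Slc2a4, which muscle also makes, was 1.00 to 1.61 times the level elsewhere.

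Among genes of sympathetic input and neurotrophins, Ntrk2, the receptor of brain-derived neurotrophic factor, was at 79.3, 58.4, 121 and 109 CPM against 13.2 to 20.2 in other spots. Of the 19 genes of that list it alone had a lowest-section fold over 2. Ngfr, the low-affinity neurotrophin receptor, was at 19.8 and 21.9 CPM in the WT sections and at 4.84 and 2.39 in the F592A sections. The groups did not overlap, but without the deep spots its levels were 8.80, 5.07, 15.4 and 3.88 CPM, and they did. Adrb3, the adrenergic receptor of fat cells, was at 0, 3.65, 4.84 and 11.9 CPM.

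Adipose spots also held RNA of cell types other than fat cells. Endothelial genes were higher in all 4 sections for 7 of 8, with Pecam1 at 135 to 182 CPM against 76.7 to 96.7. For mast cells this held for 5 of 6 genes, with the protease gene Mcpt4 at 159, 113, 59.3 and 103 CPM against 9.81 to 38.8. For MHC class II genes it held for 5 of 6. Of 10 fibroblast and wound matrix genes 6 were lower in all 4 sections, Fn1 (fibronectin) for example at 1972 to 4616 CPM against 5405 to 7140. Tenocyte genes supplied 0.172%, 0.760%, 0.691% and 0.381% of adipose UMIs, against 0.498%, 0.641%, 0.427% and 0.395% in the other spots. Muscle genes supplied over 5% of the UMIs in 60 adipose spots (5 of 52, 0 of 34, 23 of 67 and 32 of 97). Of the other spots, 37.0%, 18.3%, 34.6% and 32.4% exceeded the same 5%. Myelin genes supplied over 1% in 8 adipose spots (5, 0, 2 and 1). Sebaceous glands share lipid genes with fat. Of 9 sebaceous genes only Mgst1, a detoxifying enzyme that fat cells also make, was higher in all 4 sections. Only 2 of the 9 had at least 50 UMIs in adipose spots, so most were too sparse to judge. The list supplied 0.0405%, 0.0334%, 0.0489% and 0.0422% of adipose UMIs, against 0.0264%, 0.0161%, 0.0257% and 0.0317% in the other spots. A sebaceous share of these spots was not tested.

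**Figure D3:**
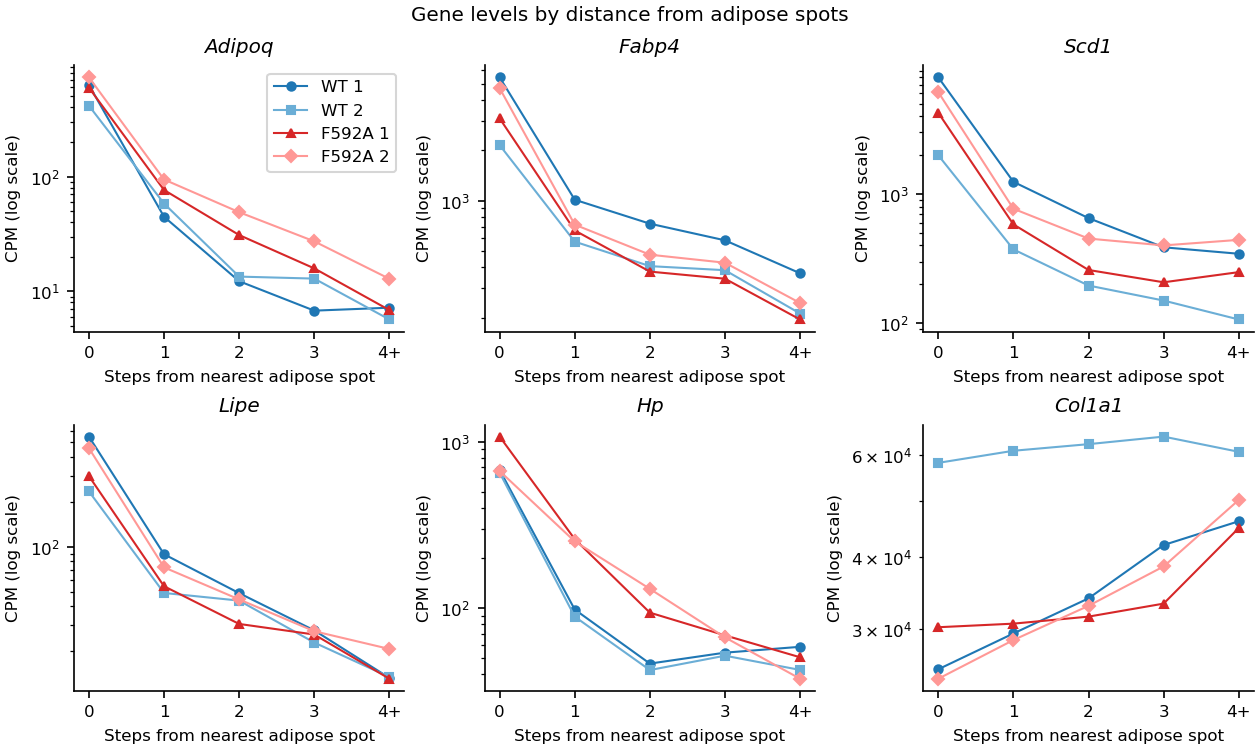
CPM (log axis) of 6 genes in adipose spots (0) and in spots 1, 2, 3 and 4 or more steps away on the array, per section. Adipoq, Fabp4, Scd1, Lipe and Hp drop most between 0 and 1, while Col1a1 is lowest in the adipose spots. Adipoq is a selection marker, so its drop was set by the choice of spots.

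Levels dropped within 1 spot of the adipose patches. Adipoq was at 44.7, 58.2, 76.4 and 94.3 CPM in the spots 1 step away, at 12.3 to 48.9 at 2 steps, and at 5.69 to 12.9 at 4 or more. It is a selection marker and these spots lay below the score cut, so its drop was set by the selection. Fabp4, which the score did not use, was at 1012, 569, 663 and 719 CPM 1 step away and at 195 to 368 at 4 or more steps. Hp was at 259 and 251 CPM 1 step away in the F592A sections and at 97.8 and 88.7 in the WT sections. Col1a1, the main collagen of tendon and wound, went the other way, from 25526 CPM in the adipose spots of WT 1 to 46046 at 4 or more steps, from 30181 to 44815 in F592A 1 and from 24581 to 50120 in F592A 2. In WT 2 it was at 58115 and 60733 CPM.

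Among the adipose spots, other fat genes were higher where the score was higher. Across the 250 spots Spearman's rho with the score was 0.60 for Trf, 0.58 for Scd1, 0.58 for Cd36, 0.58 for Fabp4 and 0.40 for Lep, and it was -0.40 for Col1a1 and -0.07 for Acta1, the actin of skeletal muscle. These values describe spots that share 4 sections and their depth. The difference was clear within 3 sections: Scd1 was at 12810 CPM in WT 1 spots scoring above the median of all 250 and at 4679 in those below it, at 6244 and 1582 in F592A 1, and at 10283 and 2114 in F592A 2. In WT 2 it was at 1968 and 1997 CPM, with 8 spots above the median.

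WT 2 had the lowest fat gene levels. It was the lowest section for 17 of the 20 companion genes (85%), and for 51 of 77 genes (66.2%) of 7 adipocyte function lists that had at least 50 UMIs, against 28.0% of all genes with as many. Without the deep spots these were 15 of 20, 53 of 77 and 27.0%. Its adipose spots had the lowest median score, 0.365%, and the highest share from the fibroblast and wound matrix list, 13.4% of UMIs against 5.77%, 8.36% and 6.71%. In summed spots, fewer fat cells per spot and less RNA per fat cell cannot be told apart.

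The comparison of the groups asked whether gene levels in adipose spots differed between F592A with 1NMPP1 and WT. UMIs were summed over the adipose spots of each section, the 6 markers were left out, and the section was the replicate. None of 8882 genes passed the quasi-likelihood test of edgeR at an adjusted p of 0.05 (0%), while 567 (6.38%) had an unadjusted p under 0.05. DESeq2 called 10 of the same 8882 genes (0.113%), 4 higher and 6 lower in F592A. Both sections of one group lay above both of the other for 3162 genes (35.6%), and an exact permutation test of 2 sections against 2 cannot give a p under 0.3333.

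For the fat cell genes the group differences were small beside the spread between sections. None of the 83 genes tested from the 7 adipocyte function lists passed, 54 were higher in F592A and 29 lower, and the median log2 difference was 0.09, against -0.00 for all genes tested. The groups did not overlap for 20 of the 83 (24.1%), a smaller share than the 35.6% of all genes. Scd1 differed by 0.06 ± 0.67 (log2, F592A over WT, SE), Fabp4 by 0.04 ± 0.56, Lipe by -0.03 ± 0.44 and Lpl by -0.51 ± 0.60. Without the deep spots the same differences were 0.97 for Scd1, 0.72 for Fabp4, 0.71 for Lipe and 0.30 for Lpl, so Lipe and Lpl changed sign, and none passed. Trarg1 had the smallest p among those named, with a log2 difference of 1.14 ± 0.31 and an adjusted p of 0.76 by edgeR (1.80 without the deep spots). Igf1, a growth factor of fat and of many other cells, was at 1416 and 2749 CPM in WT and at 906 and 607 in F592A, a log2 difference of -1.46 ± 0.48 with an adjusted p of 0.76 by edgeR (-1.32 without the deep spots). Leaving out the 15 deep spots moved the median of the 7 lists to 0.56 (72 genes tested), with -0.01 for all genes, and that of the 20 companion genes from 0.24 to 0.75, again with no call.

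**Figure D4:**
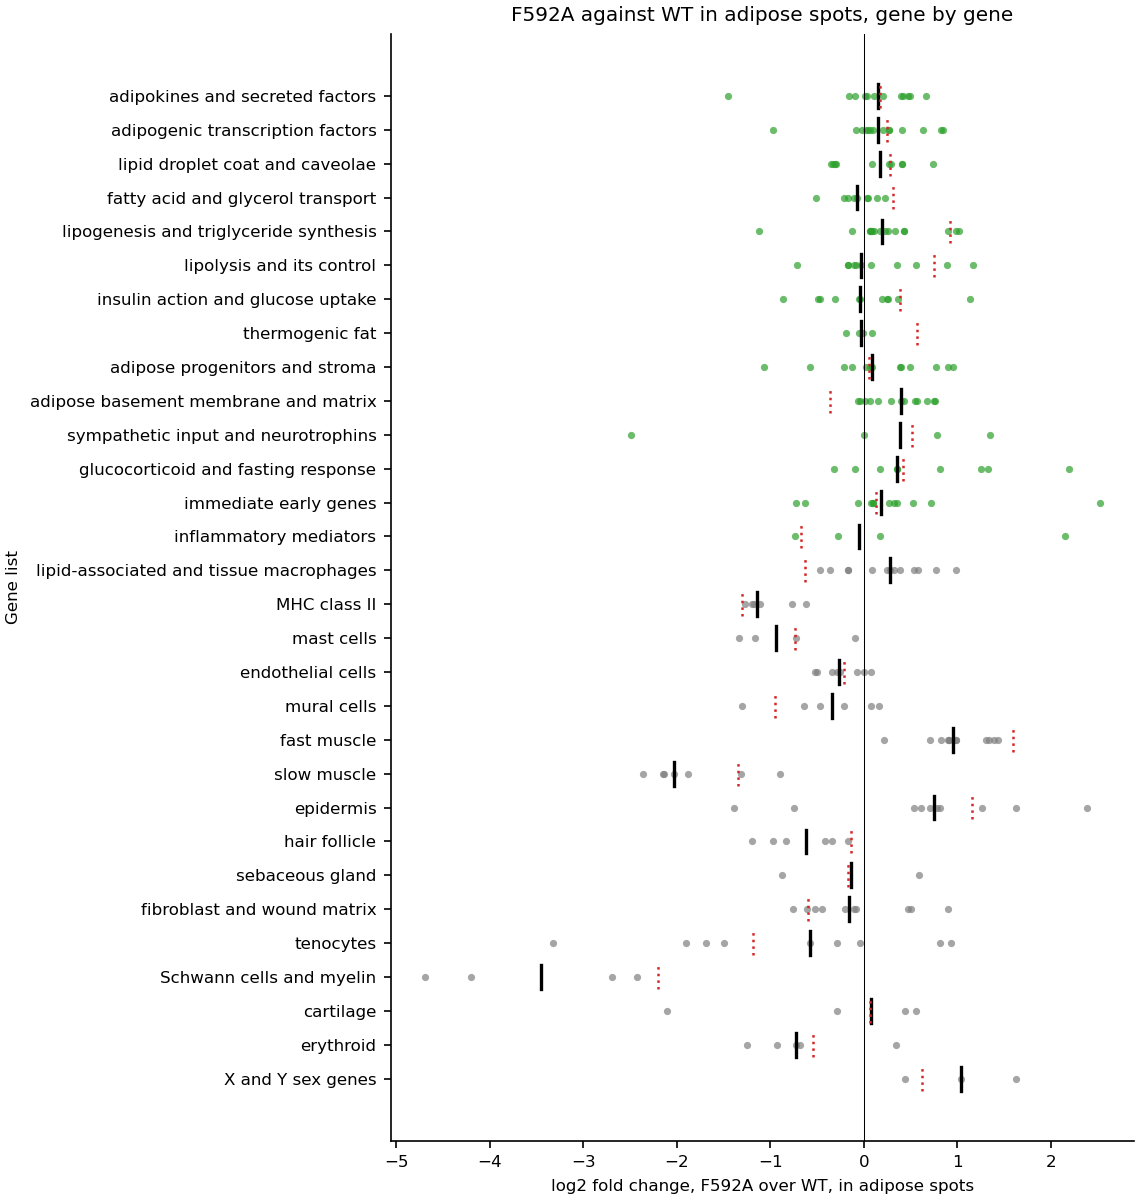
log2 fold change of F592A over WT in adipose spots for each tested gene of the gene lists (points; green for fat biology, grey for other cell types), with the list's median (black bar) and the median without spots of over 20000 UMIs (dotted red bar). No gene passed the edgeR test, and DESeq2 called Nr4a1 (immediate early genes) and Tnnt1 (slow muscle); lipogenesis moves from a median of 0.19 to 0.92 without the deep spots, and MHC class II lies below 0 in either case.

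By list, lipogenesis genes were higher in F592A for 14 of 16 (median 0.19, and 0.92 without the deep spots). Lipolysis genes were higher for 5 of 11 (median -0.03, and 0.75), and fatty acid transport genes for 4 of 9 (-0.08, and 0.31). Transcription factors were higher for 11 of 14 (0.15, and 0.25). Glucocorticoid and fasting response genes were higher for 7 of 9 (0.35, and 0.42). Among them the clock gene Per1 was at 47.6 and 36.5 CPM in WT and at 78.7 and 117 in F592A. The log2 difference of Per1 was 1.25, and 0.99 without the deep spots. In the other spots the glucocorticoid and fasting response list was also higher in F592A, at 0.0647% and 0.0677% of UMIs against 0.0522% and 0.0481% in WT. Adipose matrix genes, 13 tested in either case, turned from a median of 0.39 to -0.36 without the deep spots, so their direction rested on those spots. Tissue macrophage genes went from 0.28 over 13 genes to -0.63 over the 9 still tested, so the gene set changed as well. Without the deep spots 10 lipolysis genes, 10 transcription factors and 7 glucocorticoid and fasting response genes were tested.

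All 6 MHC class II genes were lower in F592A with no overlap between the groups, none of them passing the test. Of all genes tested, 35.6% had no overlap in either direction. Cd74, the chain that guides class II molecules, was at 999.8 and 1569 CPM in WT and at 564 and 561 in F592A. Its log2 difference was -1.19 ± 0.39 with an adjusted p of 0.76 by edgeR (-1.31 without the deep spots). The median of the 6 was -1.15, and it was -1.31 over 5 without the deep spots. The same genes were also lower in the other spots of the F592A sections, Cd74 for example at 378 and 470 CPM against 870 and 701. All 4 mast cell genes tested were lower, with a median of -0.94 (-0.74 over 2 genes without the deep spots). Tpsb2, a mast cell tryptase, was at 135 and 87.6 CPM against 36.3 and 48.9. Its log2 difference was -1.33, and -1.04 without the deep spots. In the other spots the mast cell list was also lower in F592A, at 0.00298% and 0.00692% of UMIs against 0.0112% and 0.00854% in WT.

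Muscle and myelin RNA varied between sections in the same sums, and their part in the fat gene values was not tested. No gene of the muscle and myelin lists passed the edgeR test, and DESeq2 called Tnnt1 among them. The 12 fast muscle genes were all higher in F592A, with a median of 0.95 (1.597 without the deep spots), and supplied 1.90% and 0.429% of the adipose UMIs in WT and 1.66% and 2.42% in F592A. The 7 slow muscle genes tested were all lower, with a median of -2.03 (-1.35 without the deep spots). In the 190 adipose spots with at most 5% muscle UMIs the median of the 7 fat lists was 0.01. Myelin genes supplied 1.35% of the UMIs in WT 1 and 0.0396% to 0.0831% in the other sections.

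The 12 genes named by the smallest p in each direction, with no overlap between groups, did not pass the edgeR test, with adjusted p from 0.176 to 0.623. DESeq2 called 7 of these 12, Nr4a1, Prg4, Ecm1 and Vcan as higher and Sln, Igf2 and Ccl21a as lower in F592A. Its other 3 calls, named only because it called them, were Reln, Tnnt1 and Mmp13, all lower. For each of the 12 but Ccl21a, the groups also stood apart in the same direction in the other spots. Among those higher in F592A, Nr4a1, an immediate early nuclear receptor, was at 27.8 and 42.0 CPM in WT and at 217 and 204 in F592A. Its log2 difference was 2.52 ± 0.33, and it was 1.99 without the deep spots. Errfi1, an inhibitor of the EGF receptor, was at 23.8 and 23.7 CPM against 75.1 and 75.1, and Smtnl2, a smoothelin-like protein of muscle, at 23.8 and 16.4 against 63.0 and 68.0. The log2 difference of Smtnl2 was 1.77, and 2.51 without the deep spots, and that of Errfi1 was 1.65 and 1.31. In the other spots Nr4a1 was at 45.0 and 64.8 CPM in WT and at 136 and 156 in F592A. Errfi1 was there at 27.4 and 18.5 against 48.7 and 52.6.

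Prg4, Ecm1 and Vcan, all matrix genes, had smaller differences without the deep spots. Prg4, the lubricant lubricin, was at 83.3 and 157 CPM in WT and at 690 and 679 in F592A, with a log2 difference of 2.47, which was 0.83 without the deep spots. Ecm1 was at 167 and 193 CPM against 770 and 773. Without the deep spots its levels were 158, 183, 135 and 155 CPM, and the log2 difference went from 2.09 to -0.16. Vcan, the proteoglycan versican, had 59.5 and 148 CPM against 414 and 556, and its log2 difference went from 2.16 to 0.14.

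Among the genes lower in F592A, Sln, the sarcolipin that regulates the calcium pump of muscle, was at 67.4 and 62.0 CPM in WT and at 3.63 and 4.77 in F592A. Its log2 difference was -3.87 ± 0.44 (-3.25 without the deep spots) and it was similarly low in the other spots of F592A, at 6.82 and 5.82 CPM against 115 and 127. Igf2, a fetal growth factor re-expressed in regenerating tissue, was at 71.4 and 109 CPM against 13.3 and 11.9, and H19, the noncoding RNA of the same imprinted locus, at 309 and 296 against 99.3 and 115. The log2 difference of Igf2 was -2.87, and -2.18 without the deep spots, and that of H19 was -1.50 and -0.96. Igf2 was similarly low in the other spots of F592A, at 18.7 and 12.9 CPM against 191 and 119 in those of WT. Ccl21a, a chemokine of lymphatic vessels whose near-identical gene copies can share reads, was at 230 and 452 CPM against 29.1 and 74.0, with a log2 difference of -2.75 ± 0.50 and of -2.56 without the deep spots. Edil3, a matrix protein of vessels, was at 55.5 and 74.8 CPM against 12.1 and 11.9. Sema3b, a secreted semaphorin, was at 139 and 65.7 CPM against 21.8 and 21.5. Edil3 and Sema3b had too few UMIs to be tested without the deep spots.

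**Figure D5:**
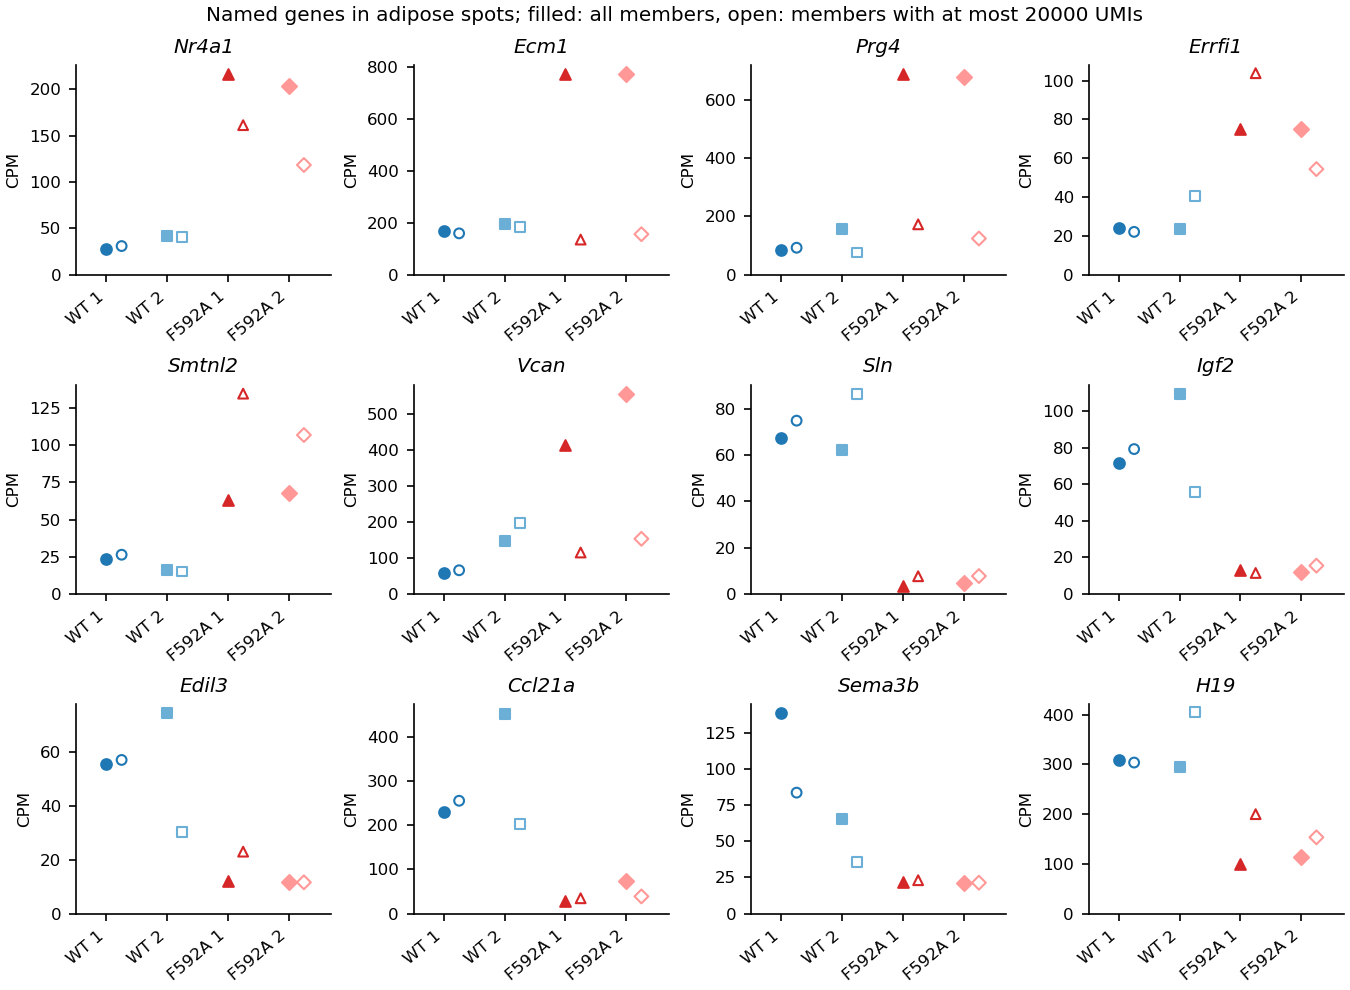
CPM of the 12 named genes in the adipose spots of each section, with all adipose spots (filled) and with those of at most 20000 UMIs (open). The groups do not overlap in the filled points; in the open points those of Vcan do, and Ecm1 is lower in both F592A sections than in both WT sections.

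A group by region test asked which genes differed between F592A and WT by another amount in adipose spots than in the other spots. With the section as a block, 9 of 15370 genes passed at an adjusted p of 0.05 by edgeR (0.0586%), and 806 had an unadjusted p under 0.05. None of the 9 is in the 7 adipocyte function lists. No gene passed without F592A 1, 5 passed without F592A 2, and 174 and 156 passed without WT 1 and WT 2. Ccl21a was at 116 and 105 CPM in the other spots of WT and at 41.0 and 116 in those of F592A, where the groups overlapped. Its interaction was -2.12 ± 0.33 (log2, adjusted p = 0.000555 by edgeR). It was -2.07 (adjusted p = 4.34e-06 by edgeR) when the deep adipose spots were counted among the other spots instead.

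Retnla, a secreted product of macrophages and fat tissue related to resistin, was at 246, 85.7, 120 and 247 CPM in adipose spots and at 78.4, 33.3, 21.96 and 28.7 in other spots. Its interaction was 1.38 ± 0.27 (adjusted p = 0.0173 by edgeR). With the deep spots counted among the other spots it was 2.11 (adjusted p = 8.06e-11 by edgeR). Within adipose spots the groups overlapped, with a log2 difference of 0.20, while the other spots were lower in F592A. Prg4 had an interaction of 2.05 ± 0.35 (adjusted p = 0.00185) and Mmp3, a matrix protease, one of -2.14 ± 0.36 (adjusted p = 0.00185 by edgeR). Neither passed with the deep spots counted among the other spots, at 0.28 and -0.86. The myosin genes Myl4 and Myh8 passed at 2.84 ± 0.41 and 3.96 ± 0.71 on few UMIs, 31, 7, 55 and 10 for Myl4 and 6, 1, 28 and 0 for Myh8. They did not pass with the deep spots counted among the other spots. Within adipose spots Myl4 differed by -0.49 (log2, F592A over WT). Eng, an endothelial receptor subunit, and Mybph, a myosin binding protein, fell outside the naming rule and are given because they passed, at 1.56 ± 0.32 and 3.02 ± 0.65. Igfbp2, a binding protein of insulin-like growth factors, had an interaction of -2.34 ± 0.50 (adjusted p = 0.0471 by edgeR) on 5, 24, 3 and 10 UMIs. Mmrn1, a protein of platelets and lymphatic endothelium, was next in that direction at -2.30 (adjusted p = 0.0629 by edgeR) and did not pass.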

How the data were processed

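Each of 4 sections gave a matrix of UMI counts per gene and spot, deposited by the authors and made with Space Ranger 1.3.0 per the file headers. The submitters' processing notes also name Seurat 3 and mm10. Library depth was 30154873 to 43957617 UMIs per section, and adipose spot sums held 252056 to 838334, so genes of few UMIs are imprecise. Barcodes mark array positions: 3327 of 4386 distinct ones occurred in 2 or more sections and 727 in all 4.

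Spots were scored and ranked in Python 3.11.15 (numpy 2.4.6, pandas 2.3.3, scipy 1.17.1, matplotlib 3.10.9). The members and gene lists were chosen with earlier results of these data known. Counts were summed per section and tested in R 4.3.3 with edgeR 4.0.16 (TMM scaling, low-count filter, quasi-likelihood test, Benjamini-Hochberg adjustment), and DESeq2 1.42.0 was an alternative (limma 3.58.1 was loaded by edgeR). The interaction used adipose and other sums with section as a block. SE is the absolute log2 difference divided by the square root of F. CPM in the text is unscaled, and folds between adipose and other spots add 20 CPM to both.

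Genes named for the group comparison were to be up to 10 per direction past 0.05 whose groups did not overlap and whose log2 CPM averaged 5 or more; as none passed, the 6 per direction with the smallest p were taken. The 20 companion genes have the highest lowest-section fold, and up to 4 interaction genes per direction the smallest p. Of the lists, about 6 fat genes and 4 genes of other cells by mean CPM may be named.

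The fits were tested on simulated data: of 200 changed genes among 8882, the group comparison recovered 11% of those changed 2-fold and 84% of those changed 4-fold, with 6 false calls. Among 15370 genes the interaction recovered 22% and 96%, with 5. The changed genes were drawn only from those above a minimum CPM, so recovery of genes at low CPM was not measured. Deviations of sections with the same replicate number correlated at -0.25. With 2 sections per group the deviations mirror each other, so this value cannot tell whether the numbers pair the sections. No 2 sections agreed within counting noise (chi-square per degree of freedom 3.95 to 9.25).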

Additional observations from a re-analysis of the deposited data

Results flagged for a closer look

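For 9 genes the difference between F592A and WT was not the same in adipose spots as in the other spots, by the interaction term of edgeR with section as a block. Values are log2 interactions, above 0 where F592A over WT was higher in adipose spots than in the other spots. A value above 0 need not be a rise within adipose spots, where Retnla differed by 0.20 and Myl4 by -0.49. Ccl21a was at -2.12, Retnla at 1.38 and Mybph at 3.02. These 3 also passed with the 15 spots of over 20000 UMIs counted among the other spots, at -2.07, 2.11 and 2.84. Mybph rested on 1, 3, 21 and 12 UMIs in the adipose spots of WT 1, WT 2, F592A 1 and F592A 2.

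Myl4 was at 2.84, Prg4 at 2.05, Mmp3 at -2.14, Myh8 at 3.96, Eng at 1.56 and Igfbp2 at -2.34. With the deep spots counted among the other spots these 6 did not pass, at 0.04, 0.28, -0.86, 2.22, 1.299 and -1.95. Myl4 and Myh8 are muscle genes and were at 263 and 96.7 CPM in the other spots of WT 1, against 11.8 and 4.80 in those of F592A 2. Eng was at 35.7, 58.4, 162 and 93.0 CPM in adipose spots and at 53.5 to 69.2 elsewhere. None of the 9 passed without F592A 1, with adjusted p from 0.0882 to 1.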

How the results depend on the processing

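The group comparison had no call by edgeR, with 567 genes at an unadjusted p under 0.05. DESeq2 called 10, no filter on low counts gave 121, and the spots below the median adipose score gave 1, Ccl21a at -3.64. Leaving out 1 section gave 29 to 292 calls, the lone section then being assumed to vary like the others: 292 without WT 1, 189 without WT 2, 41 without F592A 1 and 29 without F592A 2. The count was 0 with the replicate block (290 at an unadjusted p under 0.05), RLE scaling, 150 or 400 spots, 40 spots per section, minimums of 500 or 2000 UMIs, at most 5% muscle UMIs, dominant genes left out and markers kept. It was also 0 under settings chosen after seeing the data: at most 20000 UMIs, spots thinned to 1000 UMIs, at most 1% myelin UMIs and a score without Cfd. The crossed replicate block, also added later, gave 8 calls.

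The interaction, with 9 calls, had 4 with RLE scaling, 33 with no filter, 87 with 400 spots, 2 with 40 spots per section and 6 with 150. It had 0 without the section block (798 at an unadjusted p under 0.05). It had 100 with the deep spots counted among the other spots, of which 3 were among the 9. Leaving out 1 section gave 0 to 174: 174 without WT 1, 156 without WT 2, 0 without F592A 1 and 5 without F592A 2. Ecm1 turned to -0.16 without the deep spots (adjusted p 0.852 by edgeR), and the Myh8 interaction turned to -6.83 without F592A 1 (5.23 at the highest, without WT 1). The cause was not tested. Of the other values for named genes in the group comparison, 190 kept their direction and side of the threshold and 60 came past it. Companion genes over 2-fold in every section outside the 6 markers numbered 61, 114 with 5 CPM added and 11 with 100 CPM, and 85 without the deep spots, of which 57 were shared.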
